A study of Mus musculus with 54 samples.

Results

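The duodenum of mice on day 7 of lactation was compared with that of virgin female mice, in 11 of the 54 RNA libraries of the series. The lactating libraries were female duodenum 1, 2, 4, 5 and 6, set against virgin female duodenum 1 to 6 of matched age, all chosen by their labels. Lists of values follow the order 1, 2, 4, 5 and 6 for lactating females. The remaining lactating library, number 3, was left out because it carried a liver profile: it had 109900 CPM (reads scaled to a common number of gene reads) of Alb, the serum albumin gene, and 0.129 CPM of Sis, the sucrase-isomaltase gene. The study asks how the maternal intestine grows through pregnancy and lactation, and its other libraries cover virgin males and the jejunum and ileum. The labels give no strain or genotype. All mice were on standard chow, RM3 while breeding and RM1 in maintenance and experiment, and which of these each group was eating when sampled was not stated. The labels do not say that each library came from a separate animal, so p-values measure the spread between samples, which may be technical.

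The duodenum is the first section of the small intestine, where stomach contents meet bile and pancreatic juice, and it is the main site of iron uptake and of regulated calcium uptake. Calcium crosses its epithelial cells in steps: the channel Trpv6 admits it at the brush border, the carrier protein S100g (calbindin-D9k) ferries it through the cell, and the pump Atp2b1 expels it to the blood, with Trpv6 and S100g well known as targets of the vitamin D receptor. A lactating mouse eats more and exports calcium, lipid, sugar and protein in milk.

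The stretches upstream of S100g and Trpv6 are shown because, after Cyp2d34, these genes had the largest positive log2 fold changes among those whose groups did not overlap. Both are RefSeq sequences of GRCm38.p6, 250 bases ending just before the annotated start, written 5′ to 3′ on the gene's strand. Capitals mark the hexamer AGGTCA on either strand (AGGTCA or TGACCT), a unit that many nuclear receptors recognise. S100g lies at chrX:162961992-162964599 on the minus strand and its window at chrX:162964600-162964849, and Trpv6 lies at chr6:41620624-41636405 on the minus strand and its window at chr6:41636406-41636655.
S100g: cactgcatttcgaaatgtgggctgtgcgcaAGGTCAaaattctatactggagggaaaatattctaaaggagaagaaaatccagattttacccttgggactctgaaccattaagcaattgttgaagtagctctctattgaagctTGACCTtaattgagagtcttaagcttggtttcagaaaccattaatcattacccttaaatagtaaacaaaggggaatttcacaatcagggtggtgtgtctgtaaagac
Trpv6: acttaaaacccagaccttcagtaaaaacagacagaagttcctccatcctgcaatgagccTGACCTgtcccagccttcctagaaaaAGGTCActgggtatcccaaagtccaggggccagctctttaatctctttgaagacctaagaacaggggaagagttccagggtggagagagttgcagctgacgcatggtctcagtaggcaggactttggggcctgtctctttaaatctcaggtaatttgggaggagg
Each window held 2 of these hexamers. Of 32851 such windows in the RefSeq table, 14.02% held at least 1 and 1.36% held at least 2. A match describes letters only, and binding was not measured here.

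Gene reads ran from 19068931 to 26923744 per library and 17298 to 17808 genes had reads. Enterocyte markers were high throughout: 14 listed genes summed to 39220 to 52830 CPM in lactating females and 37010 to 59450 CPM in virgin females. Sections are not cut at an identical point, and 100 genes that separate virgin male duodenum from virgin male jejunum placed the lactating libraries at 88.7% to 112% and the virgin female libraries at 85.2% to 112% of the way from jejunum to duodenum. The excluded liver-like lactating female 3 scored 82.8% with no Pdx1 read, so this score alone cannot place a library along the gut. The 9 listed duodenum markers, S100g, Slc40a1 and Cybrd1 among them, differed more. They summed to 1321 to 2833 CPM (median 1656) in lactating females and 499.7 to 1597 CPM (median 635) in virgin females. All 9 had a positive log2 fold change (median 0.80), 5 of them at an unadjusted edgeR p under 0.05, against 4.84% of all genes. Neighbouring tissue differed between libraries. Ctrb1, a digestive enzyme of the pancreas, had 0.195, 0.149, 0.138, 3090.5 and 1.16 CPM in lactating females and 0.582 to 2156 CPM (median 676) in virgin females, and virgin female 3 was the one at the low end. Adipoq, the fat cell hormone adiponectin, had 0.0487, 0.347, 0, 0.190 and 1.03 CPM in lactating females and 0.615 to 18.4 CPM (median 4.16) in virgin females. Virgin female 3 held liver RNA: 27 liver markers summed to 353.5 CPM there. They summed to 23.7 to 36.2 CPM in the other virgin females and 17.9 to 29.1 CPM in lactating females. In such bulk tissue, fewer cells of a type and less RNA per cell cannot be told apart.

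Across 15116 genes tested with edgeR's quasi-likelihood test, 1 passed an adjusted p of 0.05 (0.00662% of genes), and it was higher in lactation. At an unadjusted p under 0.05 there were 1287 genes (8.51%), 732 higher (4.84%) and 555 lower (3.67%), and with libraries scaled by their totals alone the split was 419 higher and 763 lower. The groups did not overlap for 107 genes (0.708%), 70 with every lactating library above every virgin female one (0.463%) and 37 below (0.245%). Counts of list members given below are to be read beside these shares. The number of calls differed between methods: DESeq2 on the same libraries called 106 (0.667%), 69 higher (0.434%) and 37 lower (0.233%). A fit of the 34 female libraries of the 3 sections, chosen after the data were seen, called 75 (0.48%), 60 higher (0.384%) and 15 lower (0.0959%). It holds the same duodenum libraries, so genes that pass in it below are not separate evidence. A fit that added virgin males of all sections called 127 (0.803%), 97 higher (0.613%) and 30 lower (0.19%), and limma-voom called 1. Leaving out lactating female 6 gave 21 calls, lactating female 1 gave 6 and lactating female 2 gave 5. Leaving out virgin female 2 gave 12 calls, virgin female 6 gave 5 and virgin female 4 gave 3.

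The gene that passed was Cyp2d34, a cytochrome P450 of the Cyp2d family, whose members oxidise drugs and other foreign compounds. It lies at chr15:82615965-82620946 on the minus strand of GRCm38. Its raw reads were 54, 162, 321, 167 and 769 in lactating females 1, 2, 4, 5 and 6 (1473 in all), against 1, 8, 0, 0, 2 and 3 in virgin females 1 to 6 (14 in all). Scaled, that was 2.63, 8.02, 14.8, 7.93 and 33.1 CPM in lactating females, against 0 to 0.289 CPM (median 0.0650) in virgin females. Every lactating library stood far above every virgin female library, and Cyp2d34 rose by a log2 fold change of 7.05 ± 0.70 (SE), adjusted p = 1.20e-04. The difference was as large with Pdx1 as a covariate (7.30 ± 0.74) and with each library left out in turn (6.36 to 7.88), and the gene was called in all of those fits. With the liver-like lactating female 3 included it did not pass the count filter and was not tested. With replicate number as a block, Cyp2d34 was not called, as given further below. Virgin males had 0, 0.0926, 0, 0, 0 and 0 CPM, all within the virgin female range.

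Cyp2d34 has relatives of similar sequence on the same stretch of chromosome 15, and reads that fit several places are not in these counts, so its level is uncertain. Cyp2d26, the most read member, had 511, 419, 656, 679 and 563 CPM in lactating females, against 283 to 458 CPM (median 356) in virgin females (log2 fold change 0.63 ± 0.16 (SE), adjusted p = 0.181). Those groups overlapped. Cyp2d22 had 57.1 to 106 CPM in lactating females, against 44.7 to 85.6 CPM in virgin females, with a log2 fold change of 0.30 ± 0.19 (SE). Cyp2d10 had 0.341 to 4.50 CPM in lactating females, against 0.0423 to 1.33 CPM in virgin females, with lactating female 4 alone above 2 CPM. Cyp2d13 had 0, 4, 7, 1 and 17 reads in lactating females (29 in all), against 5 reads in virgin females, all in virgin female 3, and was too low to be tested. Its reads were most numerous in lactating females 6 and 4, as for Cyp2d34. Cyp2d12 had 1 read over the lactating libraries and none over the virgin female ones, and Cyp2d40 had no read in lactating females and 13 in virgin female 3. Virgin female 3, which also had the highest virgin female level of Cyp2d10, was the virgin library with liver RNA. Lactating female 4, the library with the most Cyp2d10, had 246 reads of Alb, the most of the lactating libraries, against 4688 in virgin female 3. Its liver markers summed to 29.1 CPM, against 353.5 CPM in virgin female 3. The part of liver RNA in these levels was not tested. The plot of Cyp2d genes by library shows the contrast beside these relatives.

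**Figure D1:**
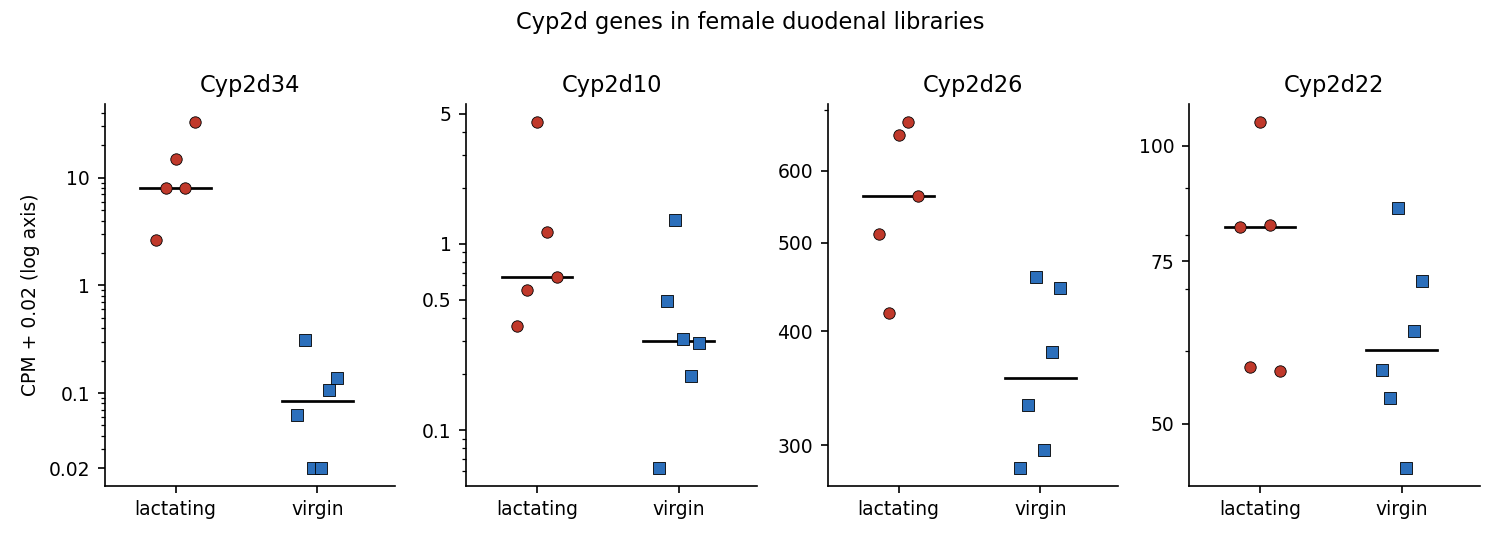
Levels of 4 Cyp2d genes in each lactating (circles, n = 5) and virgin female (squares, n = 6) duodenal library, as CPM + 0.02 on log axes whose ranges differ between panels, with a bar at the group median. Cyp2d34 is the panel in which the groups are far apart: every lactating library has at least 2.63 CPM and every virgin female library at most 0.289 CPM.

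Of 47 genes of drug and steroid metabolism, Cyp2d34 was the 1 called, and 9 were higher and 4 lower at an unadjusted p under 0.05 (list median 0.22 on the log2 scale, against 0.0093 over all genes). Cyp1a1, which answers to the aryl hydrocarbon receptor, had 30.5, 20.9, 44.5, 55.5 and 21.4 CPM in lactating females, against 3.55 to 25.3 CPM (median 14.1) in virgin females (log2 fold change 1.21 ± 0.47 (SE), adjusted p = 0.466). Lactating females 2 and 6 lay within the virgin range. Gstm3, a glutathione transferase, had 165 to 937 CPM in lactating females, against 134 to 295 CPM in virgin females, with a log2 fold change of 0.92 ± 0.38. Mgst1, a membrane-bound glutathione transferase, was the 1 member whose lactating libraries all lay below the virgin ones, at 47.6 to 64.6 CPM in lactating females, against 65.3 to 95.5 CPM in virgin females (log2 fold change -0.39 ± 0.14).

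Trpv6, the calcium channel of the brush border whose upstream window is printed above, had 22.9, 44.8, 202, 20.2 and 25.5 CPM in lactating females, against 0.0782 to 11.5 CPM (median 0.171) in virgin females. Its raw reads summed to 6778 in lactating females and 339 in virgin females, and virgin female 2 gave 318 of the virgin reads. The groups did not overlap (log2 fold change 4.87 ± 1.23 (SE), adjusted p = 0.181), with lactating female 4 far above the rest of its group and virgin female 2 far above the rest of its own. S100g, the calcium carrier whose window stands beside it, had 311, 470.1, 723, 347 and 440.3 CPM in lactating females, against 20.8 to 245 CPM (median 37.2) in virgin females. These groups did not overlap either (log2 fold change 2.68 ± 0.77 (SE), adjusted p = 0.246), and again virgin female 2 was the high virgin library.

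Atp2b1, the calcium pump of the cell's blood-facing side, had 544, 436, 1037, 567 and 307 CPM in lactating females, against 169.9 to 378 CPM (median 251) in virgin females (log2 fold change 1.20 ± 0.29 (SE), adjusted p = 0.167). Lactating female 6 lay within the virgin female range and the other lactating libraries lay above it. Slc30a10, a manganese exporter listed with the vitamin D targets, had 286, 326, 629, 291 and 245 CPM in lactating females, against 84.4 to 281 CPM (median 104) in virgin females (log2 fold change 1.45 ± 0.32 (SE), adjusted p = 0.124), where virgin female 2 overlapped the lactating libraries. Slc37a2, a sugar phosphate exchanger listed there too, had 46.5 to 144 CPM in lactating females, against 14.4 to 119 CPM in virgin females, with a log2 fold change of 1.32 ± 0.50. Vdr, the vitamin D receptor itself, had 479.7 to 758 CPM in lactating females, against 473 to 635 CPM in virgin females and a log2 fold change of 0.10 ± 0.13 (SE), with the groups overlapping. Cyp24a1, the enzyme that breaks down vitamin D, had no read in the lactating libraries and 1 read over the virgin female libraries, so it was not tested.

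Of 20 listed calcium genes, 16 were tested and none passed the adjusted threshold. At an unadjusted p under 0.05, 5 were higher and 0 lower, against 4.84% and 3.67% of all genes. For 2 members the groups did not overlap, against 0.708% of all genes. The list median was 0.09, near that of all genes, and the 11 members not higher by that measure lay between -0.28 (Atp2b2) and 0.13 (Cyp2r1). In the fit of 34 female libraries, where the spread is shared with jejunum and ileum, 4 members passed: Trpv6 (adjusted p = 0.00102), Atp2b1 (0.00174), Slc30a10 (0.00857) and S100g (0.0112). That fit was chosen after the data were seen, and Trpv6 and S100g are low in the added sections, so the shared spread may understate that of the duodenum.

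Uptake of calcium and iron is known to be strongest near the stomach, so these genes were read beside Pdx1, a transcription factor of the proximal duodenum and pancreas. Pdx1 had 58.5, 42.5, 87.2, 80 and 27.7 CPM in lactating females, against 18.3 to 69.2 CPM (median 25.4) in virgin females (log2 fold change 0.91 ± 0.40 (SE), adjusted p = 0.546). The groups overlapped, with virgin female 2 above lactating females 1, 2 and 6. Tmprss15, the enteropeptidase that activates trypsinogen and another gene of the proximal duodenum, had 29.2 to 260.3 CPM in lactating females, against 42.1 to 149.7 CPM in virgin females (log2 fold change 0.80 ± 0.42). Within virgin libraries, S100g was high where Pdx1 was high: virgin female 2 had 69.2 CPM of Pdx1 and 245 CPM of S100g, and virgin male 3 had 68.9 and 434 CPM.

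Libraries with like Pdx1 levels were then set side by side. Lactating female 6, the lactating library with the least Pdx1 (27.7 CPM), had 440.3 CPM of S100g and 25.5 CPM of Trpv6. Virgin females 3 and 4, at 30.3 and 30.8 CPM of Pdx1, had 20.8 and 60.3 CPM of S100g and 0.0831 and 0.430 CPM of Trpv6. At the high end, lactating female 1 (58.5 CPM of Pdx1) had 311 CPM of S100g and 22.9 CPM of Trpv6, and virgin female 2 (69.2 CPM of Pdx1) had 245 and 11.5 CPM. Lactating female 4, with the most Pdx1 (87.2 CPM), had 723 CPM of S100g and 202 CPM of Trpv6. Between these ends, lactating female 2 (42.5 CPM of Pdx1) had 470.1 CPM of S100g and 44.8 CPM of Trpv6, and virgin male 6 (44.7 CPM of Pdx1) had 132 and 0.994 CPM. In these pairings the lactating library was the higher one, by amounts that differed widely, but virgin male 3 had more S100g than lactating females 1 and 5.

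With log2 Pdx1 as a covariate, the lactation difference was 4.25 ± 0.77 (SE) for Trpv6 (adjusted p = 0.0646), 1.97 ± 0.48 for S100g (adjusted p = 0.304) and 0.54 ± 0.19 for Atp2b1 (adjusted p = 0.653). Pdx1 was lowest in virgin females 1, 5 and 6, which also held the most Adipoq, and with log2 Adipoq as a covariate the differences were 2.57 ± 0.96 for Trpv6 and 1.33 ± 0.69 for S100g. Without virgin female 2, Trpv6 differed by 8.40 ± 1.31 (adjusted p = 0.0182) and S100g by 3.63 ± 0.74 (adjusted p = 0.0767). Virgin female 2 had 69.2 CPM of Pdx1 and the other virgin females at most 30.8 CPM. That fit therefore leaves the groups less alike in Pdx1, and its larger differences cannot be read apart from position.

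**Figure D2:**
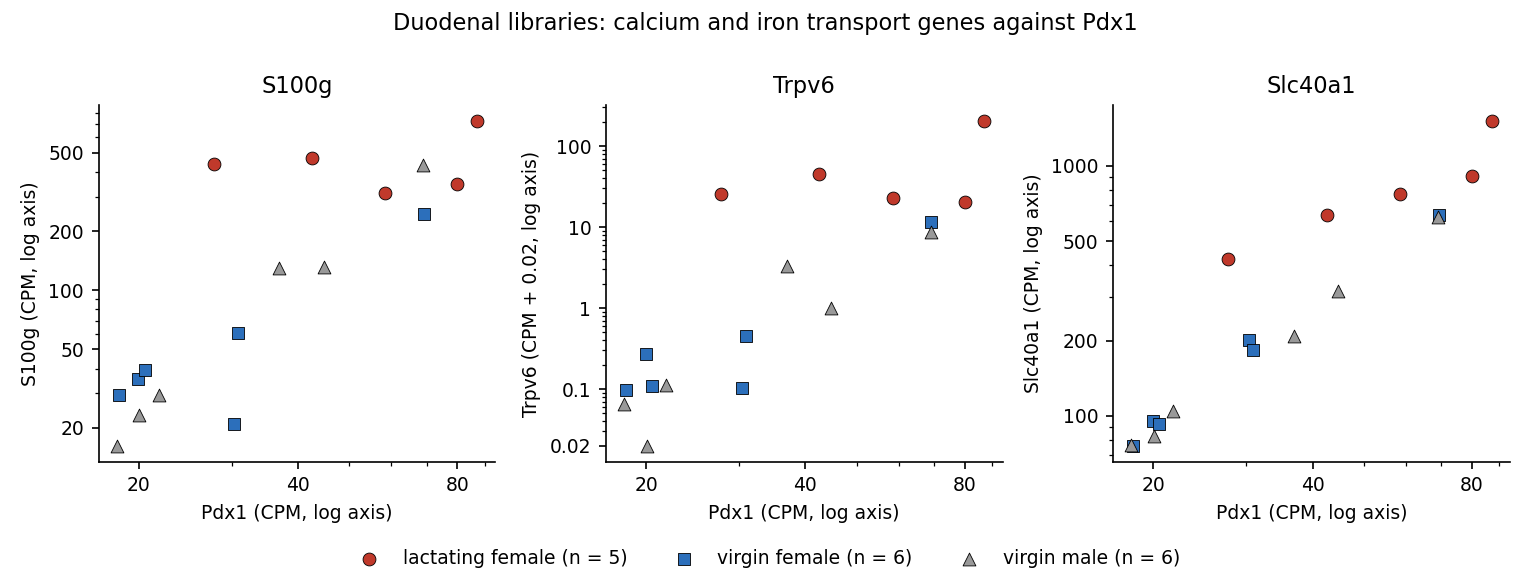
S100g, Trpv6 and Slc40a1 (CPM, log axes, Trpv6 as CPM + 0.02) against Pdx1 (CPM, log axis) in each duodenal library, with lactating females as circles (n = 5), virgin females as squares (n = 6) and virgin males as triangles (n = 6). Virgin libraries climb with Pdx1. Lactating female 6, at 27.7 CPM of Pdx1, lies far above virgin libraries of like Pdx1 for S100g and Trpv6. For Slc40a1 the gap is smaller (424 CPM, against 201 and 183 CPM in virgin females 3 and 4). At high Pdx1 virgin male 3 lies among the lactating libraries for S100g, and virgin male 3 and virgin female 2 do so for Slc40a1 (626 and 634 CPM).

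Iron uptake uses a parallel set of steps, and Slc40a1 (ferroportin), which exports iron to the blood, had 771, 638, 1506, 907 and 424 CPM in lactating females, against 76 to 634 CPM (median 139) in virgin females (log2 fold change 1.99 ± 0.60 (SE), adjusted p = 0.282). Virgin female 2 lay within the lactating range and the other virgin libraries lay below it. With Pdx1 as a covariate its difference was 0.98 ± 0.17 (adjusted p = 0.0646), and with Adipoq 0.50 ± 0.41. Cybrd1, the ferric reductase of the brush border, had 41.7, 50.6, 177, 201 and 20.5 CPM in lactating females, against 8.17 to 72.9 CPM (median 11.9) in virgin females (log2 fold change 2.13 ± 0.82 (SE), adjusted p = 0.461). Virgin female 2 lay within the lactating range and virgin female 4 was level with lactating female 6, and with Pdx1 as a covariate the difference was 0.33 ± 0.34. Slc11a2 (DMT1), which imports ferrous iron, had 133, 101, 187, 135 and 99.7 CPM in lactating females, against 69.2 to 110.3 CPM (median 73.1) in virgin females (log2 fold change 0.68 ± 0.16 (SE), adjusted p = 0.139).

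Ftl1, the ferritin light chain, had 846 to 1293 CPM in lactating females, against 659 to 822 CPM in virgin females, and Flvcr2, a heme and choline transporter, had 0.902 to 2.11 CPM in lactating females, against 0.307 to 0.677 CPM in virgin females. These were the 2 of 24 iron genes whose groups did not overlap (log2 fold changes 0.46 ± 0.13 and 1.37 ± 0.29). Tfrc, the transferrin receptor that brings in iron from the blood, had 33.4 to 119 CPM in lactating females, against 78.6 to 103 CPM in virgin females, with a log2 fold change of -0.34 ± 0.20. Of the 24, none passed the adjusted threshold, and 10 were higher and 2 lower at an unadjusted p under 0.05 (median 0.25). Over all genes 4.84% were higher and 3.67% lower at that p. The lower 2 were the metalloreductases Steap4 (-0.80 ± 0.32) and Steap3 (-0.42 ± 0.18). In the fit of 34 female libraries 4 members passed, all higher: Slc40a1, Slc11a2, Cybrd1 and the mitochondrial transporter Abcb10 (adjusted p = 0.00857, 0.0143, 0.0296 and 0.0176).

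Slc31a1 (CTR1), the copper importer, had 519, 497, 529, 624 and 548 CPM in lactating females, against 199 to 432 CPM (median 342) in virgin females (log2 fold change 0.74 ± 0.16 (SE), adjusted p = 0.116). The groups did not overlap, and the lactating libraries were close together. With Pdx1 as a covariate the difference was 0.73 ± 0.19. Slc39a4 (ZIP4), the zinc importer of the brush border, had 354, 376, 1388, 508 and 479 CPM in lactating females, against 175 to 378 CPM (median 244) in virgin females (log2 fold change 1.28 ± 0.31 (SE), adjusted p = 0.165), with lactating female 4 far above the others and lactating females 1 and 2 within the virgin range. Slc30a1, a zinc exporter, had 71.2 to 123 CPM in lactating females, against 42.7 to 81 CPM in virgin females (log2 fold change 0.64 ± 0.18). Mt1 and Mt2, the metallothioneins that bind zinc and copper, had log2 fold changes of 0.28 ± 0.43 and 0.16 ± 0.62. Of 19 zinc, copper and manganese genes, 4 were higher and 0 lower at an unadjusted p under 0.05 (median 0.15). Slc39a4 and Slc31a1 passed in the fit of 34 libraries (adjusted p = 0.0183 and 0.0415).

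Genes of riboflavin handling were among those with separated groups. Slc52a3, the riboflavin transporter, had 37.7, 55, 63.8, 47.5 and 68 CPM in lactating females, against 25.1 to 35.3 CPM (median 28.3) in virgin females (log2 fold change 0.89 ± 0.17 (SE), adjusted p = 0.0715). Rfk, the kinase that turns riboflavin into its coenzyme form, had 907, 1017, 1594, 1059.9 and 1129 CPM in lactating females, against 515 to 873 CPM (median 617) in virgin females (log2 fold change 0.81 ± 0.19 (SE), adjusted p = 0.139). In both genes every lactating library stood above every virgin female library, and with Pdx1 as a covariate the differences were 1.04 ± 0.19 and 0.89 ± 0.22. Rfk was not on the vitamin list and was chosen after its values were seen. Slc52a2, a second riboflavin transporter, had 173 to 355 CPM in lactating females, against 110.5 to 189 CPM in virgin females (log2 fold change 0.64 ± 0.18), and lactating females 1 and 6 were within the virgin range.

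Slc19a3, which carries thiamine, had 39.8, 27.6, 28.1, 56.1 and 18.8 CPM in lactating females, against 12.3 to 19.8 CPM (median 16.3) in virgin females (log2 fold change 1.06 ± 0.24 (SE), adjusted p = 0.124), with lactating female 6 inside the virgin range. Slc19a1, the reduced folate carrier, had 58.5 to 169.6 CPM in lactating females, against 47 to 82.9 CPM in virgin females (log2 fold change 0.65 ± 0.22), and Slc46a1, which takes up folate and heme, had 459.8 to 1135 CPM in lactating females, against 393 to 648 CPM in virgin females (0.58 ± 0.21). Ggh, which trims the glutamate tail of folates, had 17.1, 28.6, 50.7, 21.5 and 26.6 CPM in lactating females, against 9.47 to 18.7 CPM (median 10.5) in virgin females (log2 fold change 1.31 ± 0.25 (SE), adjusted p = 0.0715), and virgin female 6 was the virgin library that overlapped. Slc23a1, the vitamin C transporter, stood on the other side, at 0.414 to 1.61 CPM in lactating females, against 0.326 to 7.57 CPM in virgin females (log2 fold change -1.66 ± 0.78, adjusted p = 0.575). Of 19 vitamin genes, 5 were higher and 1 lower at an unadjusted p under 0.05 (median 0.10), and Slc52a3 and Slc19a3 passed in the fit of 34 libraries (adjusted p = 0.0202 and 0.0326).

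**Figure D3:**
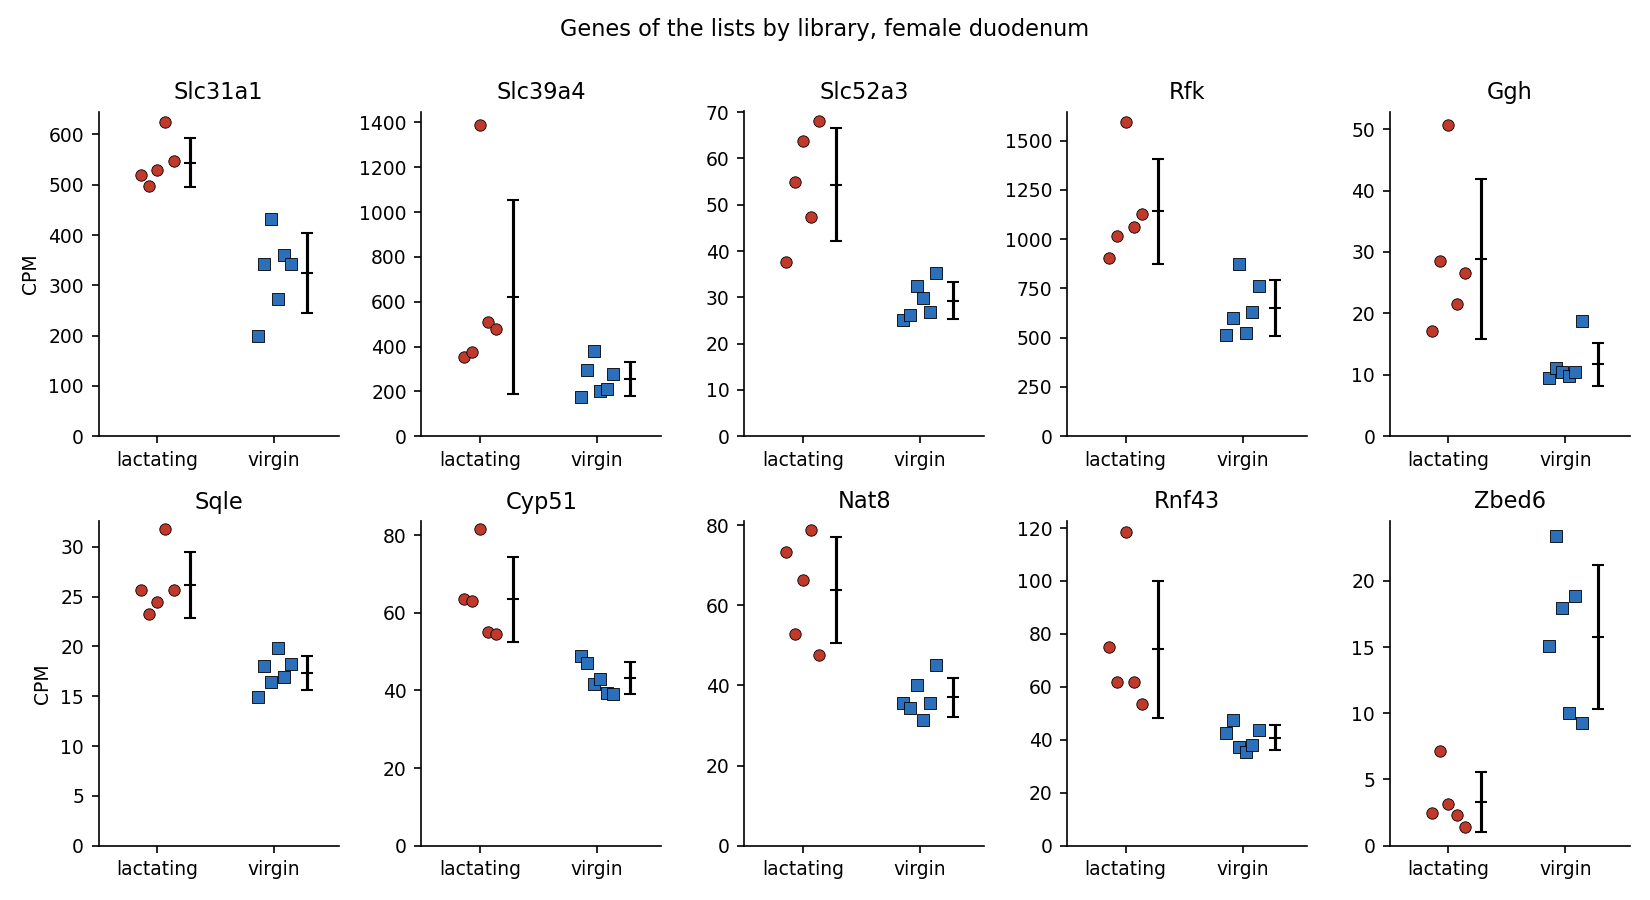
Levels (CPM, linear axes from 0) of 10 genes in each lactating (circles, n = 5) and virgin female (squares, n = 6) duodenal library, with the mean and SD as a bar beside each group. Lactating libraries lie above the virgin ones for Slc31a1, Slc52a3, Rfk, Sqle, Cyp51, Nat8 and Rnf43 and below them for Zbed6, while Slc39a4 and Ggh overlap.

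Sugar uptake genes were close between the groups. Slc5a1 (SGLT1), the sodium-glucose cotransporter of the brush border, had 5157, 3607, 6297, 5679 and 3885 CPM in lactating females, against 2933 to 6951 CPM (median 4174) in virgin females (log2 fold change 0.18 ± 0.22 SE), with a wide overlap. Slc5a4a, a related sugar-binding family member, had 187, 237, 329, 228 and 261 CPM in lactating females, against 84.9 to 226 CPM (median 148) in virgin females (log2 fold change 0.73 ± 0.27 (SE), adjusted p = 0.427), where lactating female 1 lay inside the virgin range. Its relative Slc5a4b had 17.1 to 63.5 CPM in lactating females, against 11.9 to 84.6 CPM in virgin females, with a log2 fold change of -0.09 ± 0.53. Both copies are alike in sequence, so reads that fit both are not counted.

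The glucose and fructose transporters Slc2a2 (0.21 ± 0.19) and Slc2a5 (0.37 ± 0.20) and the enzymes Lct, which splits milk sugar (0.22 ± 0.34), and Sis, which splits sucrose (0.01 ± 0.31), had log2 fold changes below 0.4. Of 13 sugar genes, 1 was higher and 0 lower at an unadjusted p under 0.05 (median 0.18), against 4.84% and 3.67% of all genes. Pklr, the pyruvate kinase of the gut and liver, had 481 to 674 CPM in lactating females, against 272 to 487 CPM in virgin females (0.58 ± 0.16), and Pck1, which makes phosphoenolpyruvate for new glucose and glycerol, had 182, 258, 689, 226 and 128 CPM in lactating females, against 513 to 1159 CPM (median 794) in virgin females (log2 fold change -1.51 ± 0.39 (SE), adjusted p = 0.196). For Pck1 lactating female 4 alone reached into the virgin range.

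Of 27 amino acid and peptide transporters tested, 1 was higher and 1 lower at an unadjusted p under 0.05 (median -0.10). These counts are near the shares of all genes (4.84% higher and 3.67% lower). The higher one was Slc38a1, a glutamine carrier, with 78.9, 90.4, 92.6, 84.9 and 86.4 CPM in lactating females, against 55.3 to 72.1 CPM (median 58.3) in virgin females (log2 fold change 0.51 ± 0.09 (SE), adjusted p = 0.0530). Its groups did not overlap and each was narrow. The lower one was Slc38a4 (-0.88 ± 0.35). Slc6a19 and Slc15a1, the neutral amino acid and peptide transporters of the brush border, had log2 fold changes of -0.05 ± 0.20 and -0.13 ± 0.24. Of 28 genes of fat absorption and lipoproteins, 0 were higher and 1 lower (median 0.01), and Fabp2, a fatty acid carrier of the enterocyte, had 1429 to 2038 CPM in lactating females, against 977 to 2145 CPM in virgin females.

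All 23 genes of cholesterol synthesis had a positive log2 fold change (21 when libraries were scaled by their totals alone), with a median of 0.33, against 0.0093 over all genes tested, of which 7847 of 15116 were positive. None passed the adjusted threshold, 11 were higher and 0 lower at an unadjusted p under 0.05 (8 and 0 with that scaling), and 4 did not overlap. Sqle, which makes the epoxide of squalene, had 25.7, 23.3, 24.5, 31.7 and 25.7 CPM in lactating females, against 14.9 to 19.8 CPM (median 17.5) in virgin females (log2 fold change 0.59 ± 0.12 (SE), adjusted p = 0.105). Cyp51, which demethylates lanosterol, had 63.6, 63.1, 81.5, 54.9 and 54.4 CPM in lactating females, against 38.9 to 48.8 CPM (median 42.3) in virgin females (log2 fold change 0.56 ± 0.15 (SE), adjusted p = 0.196).

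The other pair without overlap were the mevalonate enzymes Mvk, with 14.6 to 20.5 CPM in lactating females, against 9.23 to 11.9 CPM in virgin females (log2 fold change 0.59 ± 0.18), and Mvd, with 11.2 to 15.8 CPM in lactating females, against 9.18 to 10.8 CPM in virgin females (0.48 ± 0.15). Srebf2, the transcription factor of this pathway, had 105, 133, 209, 138 and 130.1 CPM in lactating females, against 78.1 to 121 CPM (median 98) in virgin females (log2 fold change 0.51 ± 0.14 (SE), adjusted p = 0.229), with lactating female 1 inside the virgin range. With Pdx1 as a covariate the differences were 0.60 ± 0.15 for Sqle and 0.55 ± 0.17 for Cyp51, about the size without it. Mvk and Cyp51 passed in the fit of 34 libraries (adjusted p = 0.0172 and 0.0326), and Sqle passed with DESeq2 (adjusted p = 0.00534).

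Fatty acid synthesis genes stood on the other side, with 1 of 15 higher and 6 lower at an unadjusted p under 0.05 and a median of -0.23. Scd1, the stearoyl-CoA desaturase, had 5.94, 71.6, 6.25, 9.59 and 32 CPM in lactating females, against 14.2 to 525.8 CPM (median 87.6) in virgin females (log2 fold change -2.87 ± 0.91 (SE), adjusted p = 0.315). Fasn, the fatty acid synthase, had 42.8, 59.4, 54.3, 55.3 and 77.4 CPM in lactating females, against 50.3 to 333 CPM (median 87) in virgin females (log2 fold change -1.22 ± 0.40 (SE), adjusted p = 0.347). Thrsp, a regulator of fatty acid synthesis, had 3.84, 2.92, 4.83, 3.08 and 5.56 CPM in lactating females, against 4.99 to 35.9 CPM (median 10.1) in virgin females (log2 fold change -1.84 ± 0.45 (SE), adjusted p = 0.167).

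The virgin libraries with the highest Scd1, Fasn and Thrsp were virgin females 1, 5 and 6, and these also held the most fat RNA. All 5 tested fat markers had a negative log2 fold change, 4 of them at an unadjusted p under 0.05, among these Adipoq (-4.31 ± 1.11), Plin1, which coats fat droplets (-4.05 ± 1.10), and Retn, the hormone resistin (-3.90 ± 0.99). The 6 listed fat markers summed to 102 to 118 CPM in lactating females and 106 to 232 CPM in virgin females, most of it from Cidec, which coats fat droplets in many tissues and averaged 94.8 ± 17.7 CPM in lactating females (SD, n = 5) and 102 ± 15.3 CPM in virgin females (SD, n = 6). Lep, the hormone leptin, did not pass the count filter. The part of fat RNA in these differences was not tested beyond the covariate. With Adipoq as a covariate the differences were 0.33 for Scd1, 0.20 for Fasn and -0.32 for Thrsp.

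**Figure D4:**
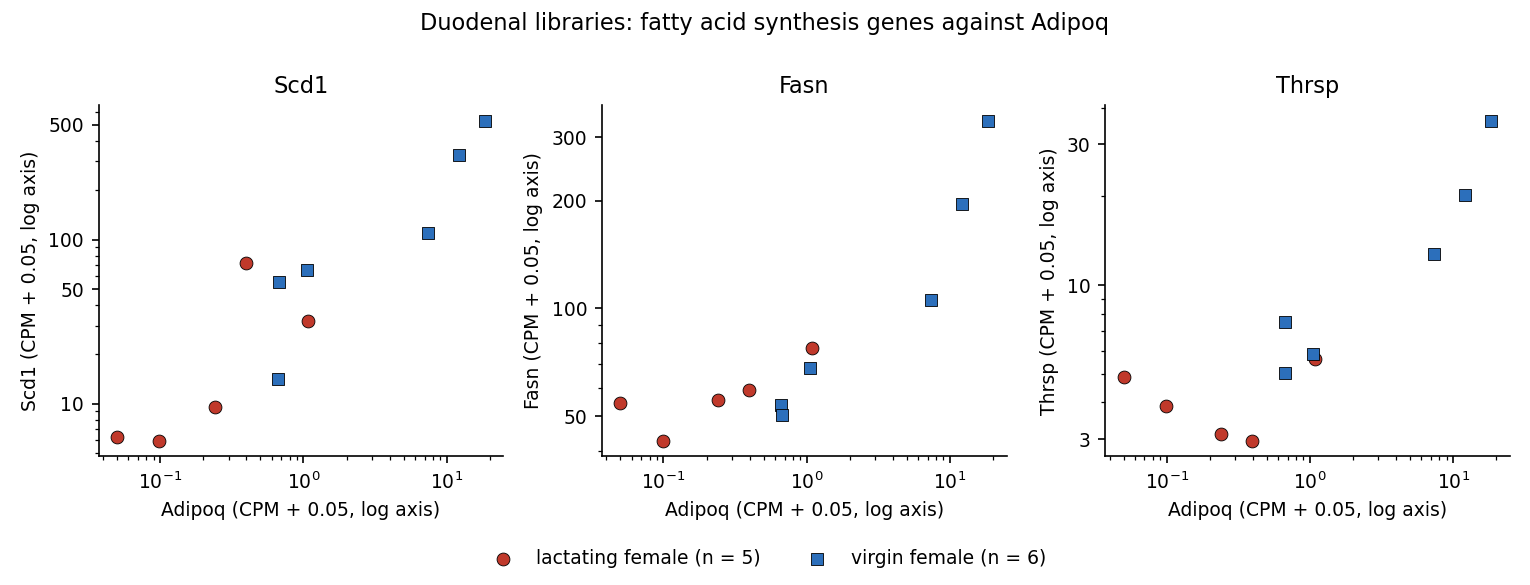
Scd1, Fasn and Thrsp against Adipoq in each lactating (circles, n = 5) and virgin female (squares, n = 6) duodenal library, all as CPM + 0.05 on log axes. The 3 virgin female libraries with more than 7 CPM of Adipoq are the highest for each gene, and at about 1 CPM of Adipoq lactating female 6 and virgin female 4 lie close together for Fasn (77.4 and 68.3 CPM) and Thrsp (5.56 and 5.78 CPM).

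Among single genes outside the transport lists, the Nat8 cluster of chromosome 6 held several with separated groups. Nat8, an acetyltransferase that completes mercapturic acids, lies at chr6:85830388-85832082 on the minus strand and had 73.4, 52.9, 66.3, 78.7 and 47.6 CPM in lactating females, against 31.3 to 45 CPM (median 35.6) in virgin females (log2 fold change 0.78 ± 0.14 (SE), adjusted p = 0.0530). Nat8f2, at chr6:85865422-85869158 on the minus strand, had 20.4, 19.3, 40.4, 25 and 14.6 CPM in lactating females, against 8.04 to 11 CPM (median 8.83) in virgin females (log2 fold change 1.38 ± 0.23 (SE), adjusted p = 0.0518). Both passed in the fit of 34 libraries (adjusted p = 0.0456 and 0.0109). Nat8f5 had 38.6 to 67.3 CPM in lactating females, against 19 to 32.9 CPM in virgin females, and it shares exon sequence with Nat8f6 on the same strand, so its reads cannot be assigned with certainty.

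The largest positive log2 fold changes among genes without overlap, after Cyp2d34, Trpv6 and S100g, were those of Notum and of Gm2061, a gene model with no given role (50.6 to 104 CPM in lactating females, against 7.35 to 44 CPM in virgin females, 2.08 ± 0.45). Notum, a secreted enzyme that disables Wnt ligands, had 4.23, 2.03, 19.3, 2.89 and 2.71 CPM in lactating females, against 0.955 to 1.64 CPM (median 1.08) in virgin females (log2 fold change 2.41 ± 0.48 (SE), adjusted p = 0.0913), with lactating female 4 far above the rest. Rnf43, which removes Wnt receptors from the cell surface, had 75.1, 61.8, 118, 61.8 and 53.6 CPM in lactating females, against 35.4 to 47.5 CPM (median 40.4) in virgin females (log2 fold change 0.86 ± 0.17 (SE), adjusted p = 0.0913). Axin2, another Wnt feedback gene, had 31.3 to 61.7 CPM in lactating females, against 25.7 to 41.9 CPM in virgin females and overlapping groups (log2 fold change 0.39 ± 0.15). Of 25 crypt and Wnt genes, 4 were higher and 1 lower at an unadjusted p under 0.05, with a median of -0.24, and Notum, Rnf43 and Hopx passed in the fit of 34 libraries (adjusted p = 0.00431, 0.00187 and 0.0109).

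The stem cell gene Lgr5 had 5.11 to 8.40 CPM in lactating females, against 6.68 to 8.41 CPM in virgin females (log2 fold change -0.24 ± 0.13), and Olfm4, another crypt marker, had 77.4 to 332 CPM in lactating females, against 180.5 to 331 CPM in virgin females (-0.64 ± 0.28). Mki67, a marker of dividing cells, had 36 to 157 CPM in lactating females, against 71.1 to 160.5 CPM in virgin females (-0.28 ± 0.29). Of 43 cell cycle genes, 0 were higher and 2 lower at an unadjusted p under 0.05 (median -0.11), against 4.84% and 3.67% of all genes. CPM is relative to each library's total, so these levels do not measure the amount of tissue.

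On the lower side, Gsdmc4 and Gsdmc2, gasdermins whose cut forms open pores in membranes, had groups without overlap. Gsdmc4 had 0.973, 0.495, 0.184, 0.285 and 1.25 CPM in lactating females, against 1.48 to 10.3 CPM (median 3.89) in virgin females (log2 fold change -3.01 ± 0.71 (SE), adjusted p = 0.148). Gsdmc2 had 0.195, 0.0990, 0.184, 0.0949 and 0.215 CPM in lactating females, against 0.326 to 6.72 CPM (median 1.46) in virgin females (log2 fold change -3.94 ± 0.85 (SE), adjusted p = 0.116), and its lactating libraries were near the limit of detection. The Gsdmc genes lie side by side on chromosome 15 and are alike in sequence, so their single levels are uncertain. Both passed in the fit of 34 libraries (adjusted p = 0.0109 and 0.0175).

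Zbed6, a transcription factor that in pig muscle represses the growth factor gene Igf2, had 2.43, 7.13, 3.17, 2.33 and 1.42 CPM in lactating females, against 9.27 to 23.4 CPM (median 16.5) in virgin females (log2 fold change -2.26 ± 0.37 (SE), adjusted p = 0.0518). Its groups did not overlap. It lies at chr1:133655879-133660885 within Zc3h11a on the same strand, so reads there may belong to either gene. Zbtb16 (PLZF), a transcription factor, had 16.5 to 38.9 CPM in lactating females, against 41 to 70.3 CPM in virgin females (log2 fold change -1.07 ± 0.26), and the largest difference without overlap on this side was that of Cfd, the fat cell protein adipsin, with 0 to 2.07 CPM in lactating females, against 2.53 to 55.1 CPM in virgin females (-4.77 ± 1.10).

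Of 22 tested genes of prolactin, growth hormone and IGF signalling, 3 were higher and 2 lower at an unadjusted p under 0.05 (median -0.08). Prlr, the prolactin receptor, had 204, 166, 145, 205 and 175 CPM in lactating females, against 119.97 to 193 CPM (median 158) in virgin females (log2 fold change 0.19 ± 0.14 (SE), adjusted p = 0.777), with overlapping groups. Cish and Socs2, feedback genes of the STAT5 pathway that prolactin and growth hormone use, had log2 fold changes of 0.27 ± 0.13 and 0.25 ± 0.16. Irs1, an adaptor of the insulin and IGF receptors, had 2.58 to 3.89 CPM in lactating females, against 3.95 to 5.54 CPM in virgin females without overlap (-0.58 ± 0.19, adjusted p = 0.356), and Lepr, the leptin receptor, had 3.95 to 6.18 CPM in lactating females, against 6.30 to 8.88 CPM in virgin females, also without overlap (-0.49 ± 0.16).

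Markers of other cells were compared as summed levels. Paneth cell markers (18 genes) summed to 1211 to 2505 CPM in lactating females and 1488 to 3063 CPM in virgin females, and goblet cell markers (16 genes) to 8340 to 14310 CPM in lactating females and 6372 to 15190 CPM in virgin females. T cell and intraepithelial lymphocyte markers (24 genes) summed to 297 to 485 CPM in lactating females and 295 to 652 CPM in virgin females. Smooth muscle markers (14 genes) summed to 3524 to 6349 CPM in lactating females and 3322 to 9272 CPM in virgin females. Ranges overlapped for all 4. Of 44 interferon response genes, 0 were higher and 3 lower at an unadjusted p under 0.05 (median 0.01), and of 74 nuclear genes of oxidative phosphorylation, 1 was higher and 0 lower (median 0.08).

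**Figure D5:**
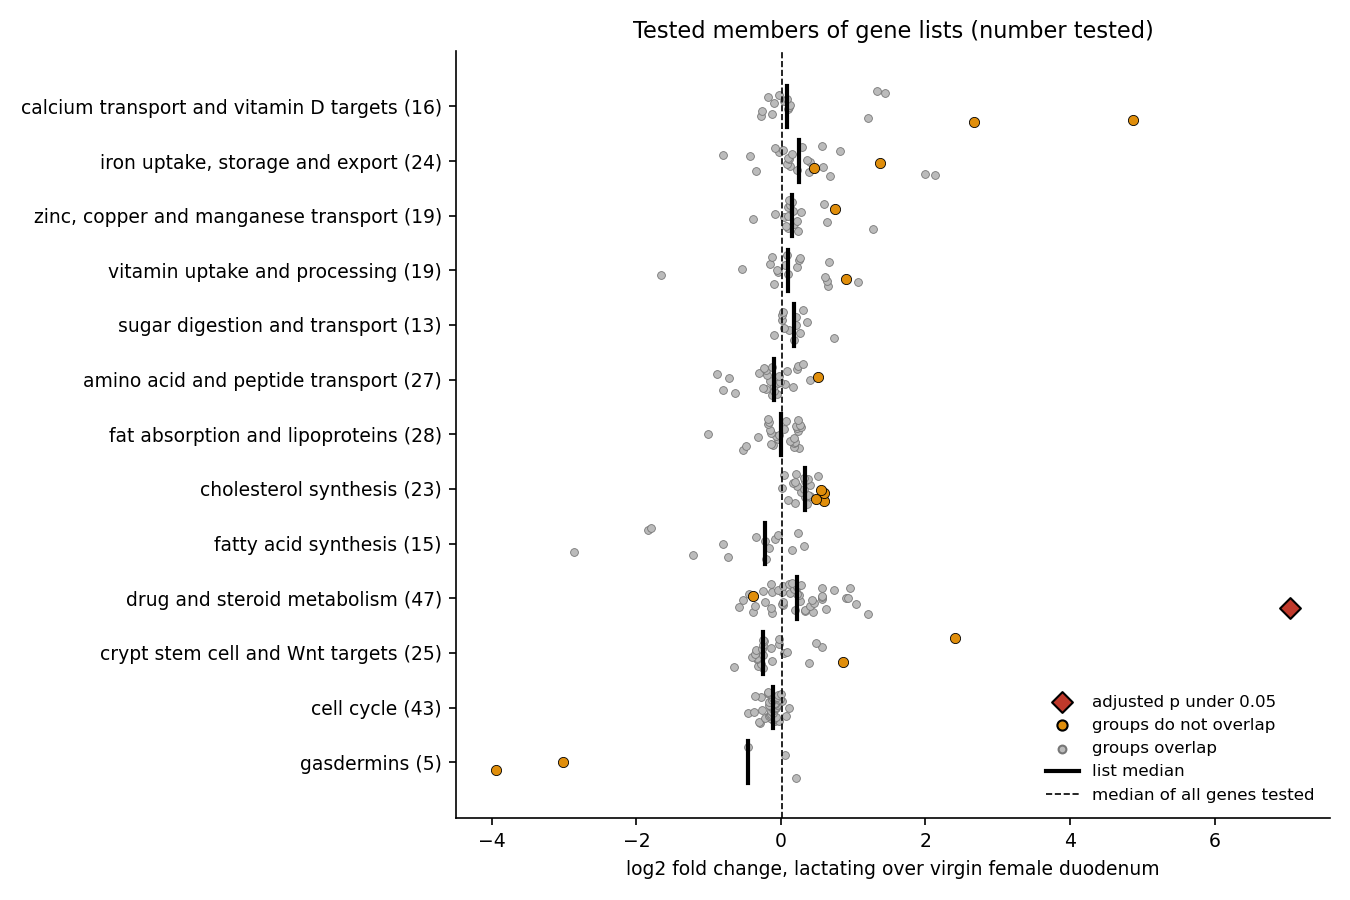
Log2 fold changes, lactating over virgin female duodenum, of the tested members of 13 gene lists (number tested in brackets), with a black bar at each list's median and a dashed line at the median of all 15116 genes (0.0093). Cyp2d34 is the single diamond with an adjusted p under 0.05, and every member of the cholesterol synthesis list lies right of 0 (21 of 23 when libraries are scaled by their totals alone).

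The lactation effect in the duodenum was set against that in the other sections in the fit of 34 female libraries (15637 genes), without lactating female jejunum 3, whose profile lay near the duodenum. By edgeR no gene differed between duodenum and jejunum at an adjusted p of 0.05 (0%; 592 at an unadjusted p under 0.05, and 6 called by DESeq2), and 4 did without lactating female duodenum 5. Between duodenum and ileum 11 genes differed (0.0703%; 49 by DESeq2). Leaving out single duodenum libraries gave 7 without lactating female 1, 21 without lactating female 2, 25 without lactating female 5, 27 without virgin female 2 and 7 without virgin female 5. Means in this comparison are scaled within the 34 libraries.

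Cyp2d34 had 0.707 ± 0.705 CPM in lactating ileum and 1.00 ± 0.431 CPM in virgin female ileum (SD, n = 6 each), where its lactation effect was -0.53 ± 0.56 (SE) on the log2 scale, against 7.05 ± 0.70 in the duodenum. The difference of these effects was 7.58 ± 0.90 (adjusted p = 1.85e-05). In the jejunum Cyp2d34 was at or near 0 reads in both groups, so its difference from the duodenum could not be estimated with any precision (7.58 ± 3.45).

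Other genes that were higher with lactation in the duodenum relative to the ileum were Sult1c2, a sulfotransferase (2.02 ± 0.40, adjusted p = 0.0263), Ggh (1.46 ± 0.27, adjusted p = 0.0157), Oxct1, which lets cells burn ketone bodies (0.84 ± 0.15, adjusted p = 0.00994), and Oma1, a mitochondrial protease (0.72 ± 0.15, adjusted p = 0.0482). Oxct1 showed opposite signs in the sections, with an effect of 0.50 ± 0.11 in the duodenum and -0.35 ± 0.10 in the ileum. Zbed6 ran the other way, with -2.26 ± 0.38 in the duodenum and 1.90 ± 0.35 in the ileum (difference -4.16 ± 0.51, adjusted p = 2.00e-05). Pmp22, a membrane protein of cell junctions and myelin, differed by -1.68 ± 0.32 (adjusted p = 0.0232), and Ttll2, a tubulin-modifying enzyme, by -2.72 ± 0.39 (adjusted p = 3.97e-04), with an effect in the ileum of 2.83 ± 0.32 and in the duodenum of 0.11 ± 0.23. Ttll2 shares exon sequence with the gene model Gm49630 on the same strand, so its reads cannot be assigned with certainty.

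No member of the calcium, iron or zinc and copper lists passed a test of difference between sections. Trpv6 was near 0 outside the duodenum, with at most 0.0472 CPM in lactating and 0.0489 CPM in virgin female jejunum, and at most 0.273 CPM in lactating and 0.125 CPM in virgin female ileum. S100g had 3.34 ± 1.42 CPM in lactating jejunum (SD, n = 5) and 2.71 ± 1.08 CPM in virgin female jejunum (n = 6), and its effect in the duodenum minus that in the jejunum was 2.38 ± 0.81 (adjusted p = 0.972). Slc31a1 had a lactation effect of 0.74 ± 0.18 in duodenum, 0.50 ± 0.18 in jejunum and 0.91 ± 0.17 in ileum. Rnf43 had effects of 0.87 ± 0.15 in duodenum, -0.14 ± 0.15 in jejunum and -0.07 ± 0.14 in ileum, and its differences had adjusted p = 0.496 against the jejunum and 0.0606 against the ileum.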

How the data were processed

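PolyA RNA of gut sections was sequenced with a directional kit, per the labels' protocols. The authors deposited raw counts of reads for each gene, named by symbol, with STAR's 4-column format. Per the submitters' processing notes, the tools were STAR 2.7.7a, DESeq2 1.34.0 and FastQC 0.11.5, with the build GRCm38. The annotation is not given in the sources used here. Column 4 of each deposited file was used, which held 97.9% to 98.5% of stranded gene reads. Reads assigned to no gene (20.0% to 31.7%) stayed out of library sizes.

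Genes were tested with edgeR 4.0.16 (R 4.3.3) by the quasi-likelihood F test on counts kept by the expression filter (minimum count 10, minimum total 15), scaled by TMM and adjusted over all genes by Benjamini-Hochberg. The fit held 17 duodenum libraries, in which 6 virgin male libraries share the estimate of spread. Differences between sections were contrasts over 34 female libraries. Levels are CPM with TMM scaling, with lactating libraries listed in the order 1, 2, 4, 5 and 6, virgin females as lowest, highest and median, and log2 fold changes are given ± SE. Alternatives were other scalings, filters, DESeq2 1.42.0, limma-voom 3.58.1, other sets of libraries, a replicate block, and Pdx1, pancreas or Adipoq as covariates. The edgeR fits were also run on simulated counts with known changes. Those counts held no shared differences in position or carried-over tissue between libraries, so they cannot show how the fits behave on these data. Coordinates are from GENCODE M21 on GRCm38, counted from 1, and 24366 of 25229 symbols matched. Upstream sequences are from RefSeq.

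The groups, gene lists and tests were chosen with earlier results of these data known. The rule for named genes took 24 fixed transport, digestion and crypt genes, the called genes without overlap, the called or otherwise the best expressed members of each list, and the 5 largest differences of each sign between sections. Since 1 gene was called, most other genes given with values were chosen after their values were seen. DESeq2 gave no adjusted p to 9342 genes, which were left out.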

Additional observations from a re-analysis of the deposited data

Results flagged for a closer look

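Single libraries stood far from the rest of their group in 15 of 170 gene groups looked at on the log2 scale, by Dixon's test for a far sample, which chance gives in about 1 of 20. Lactating female 4 was the far library in 7 of them, as the highest for Slc39a4 (1388 CPM), Slc30a1 (123 CPM), Mvk (20.5 CPM), Slc52a2 (355 CPM), Rtn4r (27.5 CPM) and Dcst2 (13.1 CPM) and the lowest for Ccdc141 (0.873 CPM). Virgin female 2 was the highest of its group for Trpv6 (11.5 CPM) and Slc30a10 (281 CPM) and the lowest for Acta1 (0.434 CPM). Lactating female 6 was the highest for Acta1 (46.9 CPM) and the lowest for Itga1 (13.1 CPM), and lactating female 5 was the highest for Sis (5048 CPM). Virgin female 6 was the lowest for Irs1 (3.95 CPM) and the highest for Ggh (18.7 CPM).

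The lactation effect differed between duodenum and ileum, by the test of the difference, for 11 genes, on the log2 scale. The duodenum's effect was larger for Cyp2d34 (7.58), Sult1c2 (2.02), Ggh (1.46), Oxct1 (0.84) and Oma1 (0.72). It was smaller or more negative for Zbed6 (-4.16), Ttll2 (-2.72), Zfp369 (-2.16), Lmbrd2 (-1.92), Pmp22 (-1.68) and Lnpep (-1.06). Outside the comparison, Alb stood at 109900 CPM in lactating female duodenum 3, where the other female duodenum libraries had at most 176 CPM.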

How the results depend on the processing

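The count of 1 called gene in the duodenum became 3 with RLE size factors, 8 with library totals alone, 3 with no expression filter, 106 with DESeq2, 127 with libraries of all sections and both sexes, 3 with Pdx1 as a covariate and 0 with lactating female duodenum 3 included, where Cyp2d34 did not pass the count filter. Settings chosen after seeing the data gave 75 with 34 female libraries, 3 without edgeR's legacy option and 2 with robust estimation. With 1 library left out it was 1 to 21, and the count of differences ran from 0 to 4 against the jejunum and from 7 to 27 against the ileum. For these differences DESeq2 called 6 and 49 in place of 0 and 11, and limma-voom called 7 against the ileum. Library totals moved the median log2 fold change of all genes to -0.062. Correlations of deviations between same-numbered libraries ran from -0.44 to 0.35, and the same number was the best match only for replicate 1. Tissue carried over in single libraries also enters these correlations, so they cannot decide whether the numbers mark libraries handled together, which was not tested. With the replicate block the calls were 0 in the duodenum (Cyp2d34 6.65, adjusted p = 0.0813), 0 against the jejunum and 6 against the ileum.

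Uncalled genes changed sign, with log2 values as follows. With lactating female duodenum 3 included they were Slc5a1 -0.10, Lct -0.070, Sis -0.27, Vdr -0.19, Fabp2 -0.085, Scd1 5.91, Fasn 4.06, Thrsp 4.81, Pck1 0.58, Irs1 0.91, Lepr 0.94, Zbtb16 0.28, Lpin1 4.37 and Ccdc141 1.12. With Pdx1 as a covariate they were Slc5a4b 1.07, Vdr -0.091, Tmprss15 -0.14 and Mki67 0.085. With Adipoq they were Slc5a4b 1.07, Vdr -0.039, Pdx1 -0.18, Tmprss15 -0.10, Mki67 0.12, Scd1 0.33 and Fasn 0.20. Slc5a4b was 0.050 with limma-voom and 0.14 with the replicate block. Sis was -0.041 with library totals and -0.00093 with the 11 libraries alone. With 1 library left out, Slc5a4b ran from -0.43 to 0.34, Lct from -0.016 to 0.36 and Sis from -0.17 to 0.26. The cause was not tested.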

Other observations

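The library labelled lactating female jejunum 3, which was left out of the comparisons between sections, stood at 88.7% of the way from jejunum to duodenum and had 20.3 CPM of Pdx1 when scaled by its total alone, where the other jejunum libraries had at most 0.265 CPM. On that scale it had 28.7 CPM of S100g, 0.129 CPM of Trpv6 and 98.9 CPM of Slc40a1. The lactating duodenum libraries other than number 3 had at least 305 CPM of S100g, 17.8 CPM of Trpv6 and 440.5 CPM of Slc40a1, and virgin females 1, 5 and 6 with like Pdx1 (18.05 to 21.5 CPM) had 28.9 to 41.0 CPM of S100g, 0.0770 to 0.268 CPM of Trpv6 and 74.8 to 100.5 CPM of Slc40a1. Acta1, the actin of skeletal muscle, had 8.18, 4.95, 8.92, 5.74 and 46.9 CPM in lactating females, against 0.434 to 6.10 CPM (median 3.22) in virgin females (log2 fold change 2.12 ± 0.59 (SE), adjusted p = 0.227), with lactating female 6 far above the others, and its smooth muscle counterpart Actg2 had 87.7 to 223 CPM in lactating females, against 118 to 319 CPM in virgin females.

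Kdr, a growth factor receptor of blood vessel cells, had 27 to 63.2 CPM in lactating females, against 17.8 to 38.3 CPM in virgin females (log2 fold change 0.70 ± 0.19, adjusted p = 0.227), and 4 of 18 endothelial genes were higher and 0 lower at an unadjusted p under 0.05 (median 0.20). The B and plasma cell list had 15 of 15 tested members with a positive log2 fold change (14 with library totals alone, median 0.58), 1 of them at an unadjusted p under 0.05, and its sums were 1282 to 2256 CPM in lactating females and 1023 to 2192 CPM in virgin females. Lymphoid follicle RNA differed between libraries: its 6 markers summed to 259.3 CPM in lactating female 2 and 222.5 CPM in virgin female 4. Cd79a, a B cell gene, had 91.0 CPM in lactating female 2, 5.43 to 9.15 CPM in the other lactating libraries and 67.7 CPM in virgin female 4. Genes that vary together in this way are not separate evidence. Of 77 ribosomal protein genes, 2 had a positive log2 fold change (1 with library totals alone, median -0.21), with 0 higher and 1 lower at an unadjusted p under 0.05. Lactating female 4 stood apart from its group in several of them. It was lowest for Rps19 (53.1 CPM, against 123 to 183 CPM in the other lactating libraries) and Rpl9 (104 against 226 to 318 CPM). For Rps9 it was highest (742 against 355 to 564 CPM). Aqp1, a water channel, had 45.9 to 90.9 CPM in lactating females, against 72.2 to 149 CPM in virgin females (log2 fold change -0.91 ± 0.19, adjusted p = 0.105).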
